A study of Homo sapiens with 6 samples.

Results

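Wnt ligands, receptors and feedback inhibitors were followed in the human ovarian cancer line HEY, with and without overexpression of CSGALNACT2. The 10 genes were picked by symbol from the 58735 genes of the expression table, with 1 gene ID each: the ligands WNT5A, WNT5B and WNT7B, the receptors FZD2 and FZD7, the secreted inhibitors DKK1, DKK3 and SFRP1, and the intracellular feedback inhibitors AXIN2 and NKD1. RNA-seq was performed on 3 libraries of cells transfected with the empty vector (Vector) and 3 libraries of cells transfected with a plasmid carrying CSGALNACT2 (oeCSGALNACT2), an enzyme that adds N-acetylgalactosamine in chondroitin sulfate synthesis. The insert was the full-length human CSGALNACT2 in a lentiviral vector with puromycin resistance, and whether the cells were a pool or a clone is not given in the sources used here. Lentiviral infection and a long puromycin selection are described in the study's methods, and the study elsewhere speaks of stable overexpression in HEY cells, while the labels say only that the cells were transfected. All cells were grown in the same serum-containing medium.

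Wnt ligands are secreted glycolipoproteins that bind Frizzled receptors and a co-receptor on neighbouring cells. In the canonical branch they stabilise beta-catenin, which then acts with TCF/LEF factors on target genes, and AXIN2, NKD1 and DKK1 are among those targets and restrain the pathway in turn. WNT5A and WNT5B signal mainly through beta-catenin-independent branches, which act on cell polarity and movement through ROR receptors and planar polarity proteins. Dickkopf and SFRP proteins are secreted antagonists: DKK1 blocks the LRP5 and LRP6 co-receptors, and SFRP1 binds Wnt ligands themselves. WNT5A has been studied in ovarian cancer for its part in invasion and in growth within the peritoneal cavity.

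The level of each gene is given as FPKM, reads scaled by the length of the gene and the size of the library, so that levels can be compared between genes on a per-length scale. With a mean of at least 1 FPKM over the 6 libraries, 7 of the 10 genes were tested with limma on log2(FPKM + 1), and WNT7B, AXIN2 and NKD1 fell below that minimum. Log2 fold changes are on the log2(FPKM + 1) scale, and adjusted p-values were computed over all 11479 genes tested. Nothing in the labels says that the libraries came from separate cultures, so the p-values reflect only how these libraries vary, which may be technical variation. In bulk RNA, fewer cells with a transcript and less of it per cell cannot be told apart.

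Shown are the promoters of the 2 WNT5 genes, which differed in opposite directions, and of DKK1. No promoter window was at hand for the other genes, so they were not searched. RefSeq promoter windows of 300 bases (GRCh38.p14, 250 before to 50 after the start) were at hand for 3 of the 10 genes, in 5 windows. The bases upstream of the start and outside exons of coding transcripts are printed from 5′ to 3′ in the direction of transcription, in lower case. Capitals mark a match to GGAATG, the core bound by TEAD factors. The other WNT5A window lay within an exon and is not shown.
WNT5A, chr3:55481399-55481648, minus strand: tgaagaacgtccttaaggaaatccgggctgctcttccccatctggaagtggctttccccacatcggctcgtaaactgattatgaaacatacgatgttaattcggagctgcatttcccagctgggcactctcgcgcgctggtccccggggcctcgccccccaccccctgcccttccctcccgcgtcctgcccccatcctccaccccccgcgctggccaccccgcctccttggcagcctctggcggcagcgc
WNT5B, chr12:1616806-1617055, plus strand: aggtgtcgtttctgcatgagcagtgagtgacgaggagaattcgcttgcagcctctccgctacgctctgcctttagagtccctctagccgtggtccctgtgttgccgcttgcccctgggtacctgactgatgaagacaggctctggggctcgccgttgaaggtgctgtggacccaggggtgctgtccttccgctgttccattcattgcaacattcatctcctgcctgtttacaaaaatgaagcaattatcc
WNT5B, chr12:1628981-1629196, plus strand: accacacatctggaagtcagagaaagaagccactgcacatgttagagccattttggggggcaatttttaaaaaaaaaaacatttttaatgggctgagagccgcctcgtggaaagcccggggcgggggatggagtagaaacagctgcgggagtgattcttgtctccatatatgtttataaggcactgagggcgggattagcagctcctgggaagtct
DKK1, chr10:52314031-52314280, plus strand: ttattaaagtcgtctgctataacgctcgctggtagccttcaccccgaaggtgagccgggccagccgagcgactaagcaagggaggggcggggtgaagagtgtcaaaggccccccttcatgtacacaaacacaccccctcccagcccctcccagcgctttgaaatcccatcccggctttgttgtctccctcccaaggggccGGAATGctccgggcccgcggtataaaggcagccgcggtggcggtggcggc

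Both strands of the whole windows were searched for 3 motifs, which do not overlap each other in these windows. CTTTGAT, a TCF/LEF motif, was found in 0 of the 5 windows, and 2.62% of all 35116 promoter windows in the RefSeq table held it. TGANTCA, the AP-1 motif, was found in 0 of the 5, against 7.71% of all windows. GGAATG was found in 1 of the 5, against 14.0% of all windows: the match in the DKK1 window starts at position -50 from the start site and is the only run of capitals above. The other 4 windows, of WNT5A and WNT5B, held none of the 3 letter strings, which says nothing about the factors. The windows differed in base composition, with 51.7% and 52.0% GC in the WNT5B windows and 63.7% GC in the WNT5A window shown and in that of DKK1.

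The libraries held 15628834 to 18186682 reads. Genes with a read numbered 18519, 21995 and 21758 in Vector and 17894, 22683 and 19896 in oeCSGALNACT2 replicates 1, 2 and 3. CSGALNACT2 itself was at 15.3, 8.18 and 8.12 FPKM in Vector replicates 1 to 3 and at 535, 453 and 409 FPKM in the oeCSGALNACT2 libraries (log2 fold change 5.39, adjusted p = 0.00302 from limma). The mitochondrial share of reads was 2.77% to 3.61% in Vector cells, below the 4.60% to 4.82% of oeCSGALNACT2 cells. Of the markers checked, the ovarian serous list, led by PAX8, summed to 30.8 to 68.8 FPKM in Vector and 34.0 to 75.5 in oeCSGALNACT2 cells, with FOLR1 without a read in any library. The epithelial list, led by KRT18 and with 3 of 7 genes at 1 FPKM or more, summed to 152 to 268 and 306 to 517 FPKM. The fibroblast list summed to at most 5.22 and 5.70 FPKM, without a COL3A1 read, and the leukocyte list to at most 0.553 and 0.389 FPKM. The 4 endothelial genes, with only CDH5 at 1 FPKM or more, summed to 19.9 to 31.1 FPKM in Vector and 6.25 to 10.5 in oeCSGALNACT2 cells. The epithelial and endothelial sums moved with the groups, although no gene of these lists passed the test, and their part in the results below was not tested.

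In both groups the libraries numbered 1 differed from the other libraries along GC content. Across 11476 genes, which are not independent replicates, the deviation of replicate 1 from replicates 2 and 3 correlated with the GC content of the longest transcript at a Pearson's r of -0.798 in Vector and -0.757 in oeCSGALNACT2 cells. In Vector cells the median deviation on the log2 scale was 0.609 below the 25th percentile of GC and -0.849 above the 75th, and in oeCSGALNACT2 cells it was 0.578 and -0.868. Of the 7 tested members, FZD2 and WNT5B, at 64.9% and 58.6% GC, were low in replicate 1 of both groups, and DKK1 and WNT5A, at 43.5% and 42.3%, were high there. FZD7 departed from that order, at 0.545 of the mean of replicates 2 and 3 in Vector replicate 1 against 0.583 for WNT5B. AXIN2 and NKD1, at few reads, went opposite ways in replicate 1 of the groups. These percentiles stood at 41.6% and 55.4% GC, around a median of 47.4%. The difference between groups of each tested member is therefore also given with the replicate number as a block, which compares libraries of the same number, and with replicates 2 and 3 alone. Other genes of the pathway are given with the block.

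**Figure D1:**
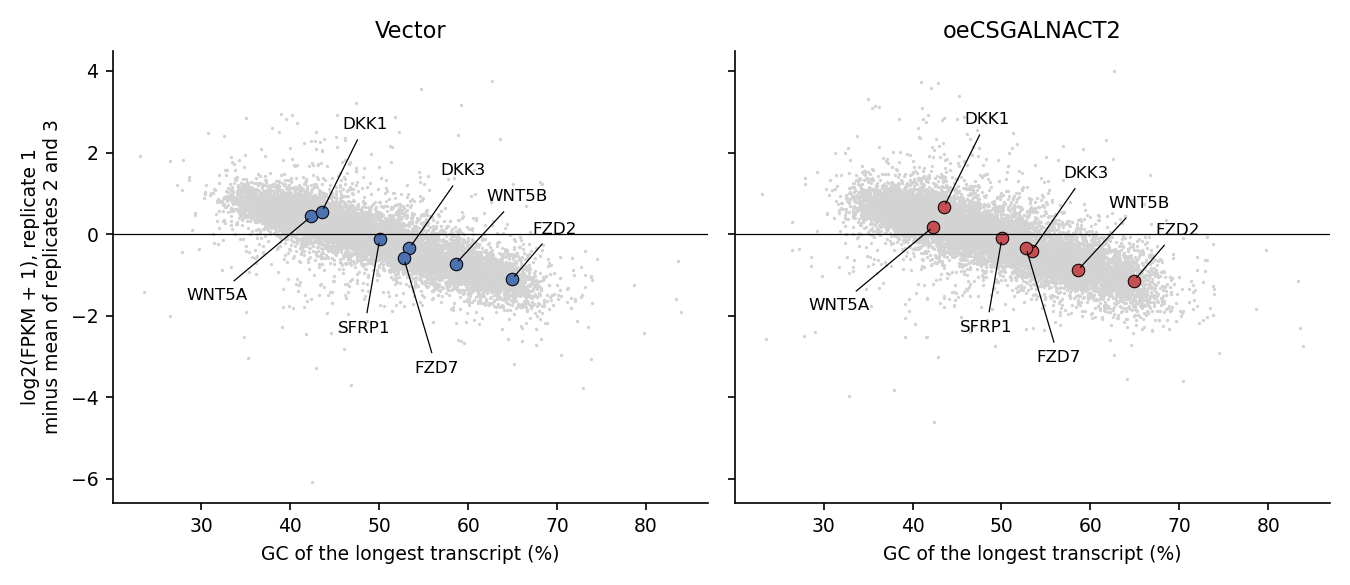
GC content of the longest transcript (x axis, percent) against the deviation of replicate 1 from the mean of replicates 2 and 3 (y axis, log2(FPKM + 1)) in Vector (left) and oeCSGALNACT2 (right) cells. Grey points are the genes tested and coloured points are the 7 tested members, which fall from DKK1 and WNT5A above 0 to WNT5B and FZD2 below it.

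None of the 7 tested genes passed an adjusted p of 0.05 in the comparison of all 6 libraries, where 155 of 11479 genes did (1.35%). At an unadjusted p under 0.05 there were 2 of the 7, WNT5A and WNT5B, against 1958 of all genes (17.1%). With the replicate block, 5 of the 7 passed, WNT5B, FZD2 and SFRP1 higher and WNT5A and DKK3 lower in oeCSGALNACT2 cells, where 43.7% of all genes passed. With replicates 2 and 3 alone, 4 of the 7 passed, WNT5B, FZD2, SFRP1 and WNT5A, against a background of 41.8%. After the GC trend of each library was removed, a step added after the data were seen, the same 5 passed as with the block, against 22.8% of all genes. DESeq2, run on whole reads rebuilt from FPKM, called only WNT5A, against 8.07% of the genes it tested. The groups did not overlap for 2 of the 7, WNT5A and SFRP1, and for 24.0% of all genes tested. The median log2 fold change was 0.13 over the 7 members and -0.01 over all genes tested.

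WNT5A, a ligand of the beta-catenin-independent branch, was 1.95-fold lower in oeCSGALNACT2 cells. The gene (ENSG00000114251) lies on the minus strand of chromosome 3 from 55465715 to 55490539 (GRCh38, GENCODE 29). Its level was 31.4, 23.1 and 22.9 FPKM in Vector replicates 1, 2 and 3 and 14.5, 12.8 and 12.5 FPKM in oeCSGALNACT2 replicates 1, 2 and 3. Every Vector library lay above every oeCSGALNACT2 library, and replicate 1 was the highest of its group in both. The means were 25.8 ± 4.86 and 13.3 ± 1.07 FPKM (SD, n = 3 libraries), an exact two-sided permutation p of 0.1, the smallest that 3 libraries against 3 allow. In limma the log2 fold change came to -0.90 (SE 0.187, unadjusted p = 0.00243, adjusted p = 0.0763). It passed with the block (adjusted p = 0.00138) and in replicates 2 and 3 alone, at a log2 fold change of -0.82 (adjusted p = 0.00128). Between libraries of the same number, Vector exceeded oeCSGALNACT2 2.17-fold, 1.81-fold and 1.83-fold in replicates 1, 2 and 3.

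WNT5B, the close paralog of WNT5A, differed in the opposite direction and by a like factor. The gene (ENSG00000111186) lies on the plus strand of chromosome 12 from 1529891 to 1647243. Its level was 15.7, 23.9 and 29.9 FPKM in Vector replicates 1, 2 and 3 and 29.1, 51.9 and 57.8 FPKM in the oeCSGALNACT2 libraries. The groups overlapped, because oeCSGALNACT2 replicate 1 lay just under Vector replicate 3, and replicate 1 was the lowest library of both groups. The means were 23.2 ± 7.15 and 46.3 ± 15.1 FPKM (SD, n = 3 libraries, exact two-sided permutation p = 0.2), 2.00-fold higher in oeCSGALNACT2 cells. In limma the log2 fold change came to 0.96 (SE 0.343, adjusted p = 0.230), and 0.96 with the block (SE 0.0685, adjusted p = 0.000875). Without replicate 1 it was 1.01 (adjusted p = 0.00352). Within the replicate numbers, oeCSGALNACT2 exceeded Vector 1.86-fold, 2.18-fold and 1.93-fold.

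**Figure D2:**
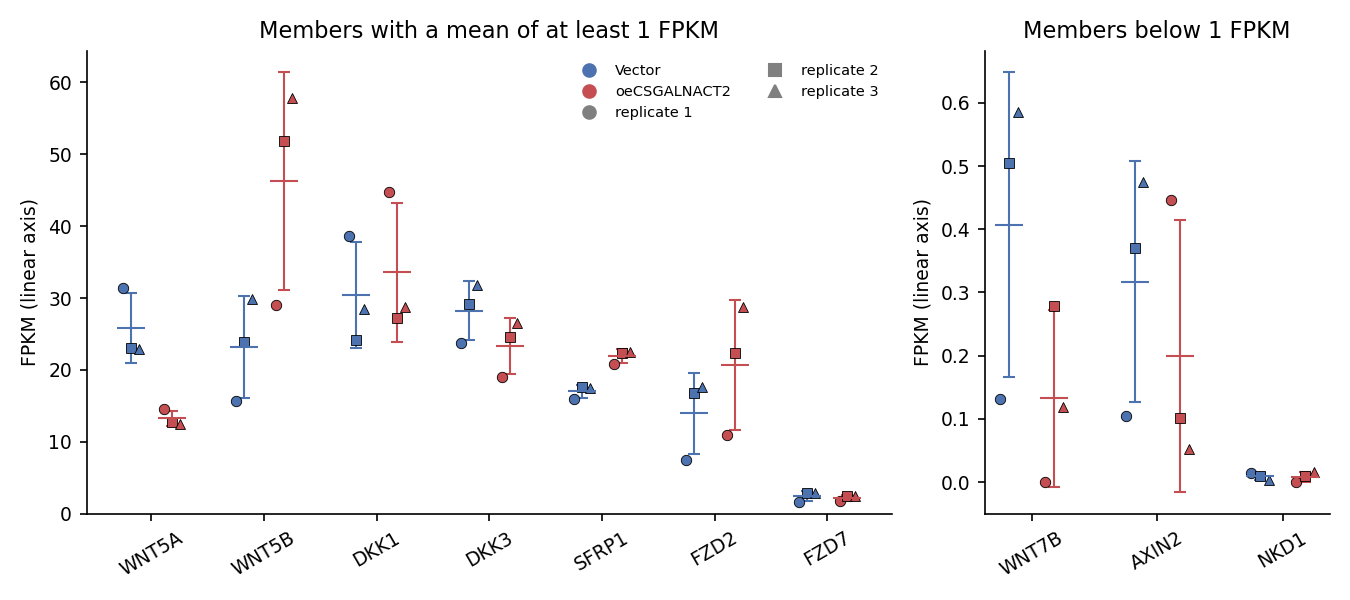
FPKM of each member in every library (linear y axes), with Vector in blue and oeCSGALNACT2 in red. Symbols give the replicate number, horizontal bars the mean and whiskers the SD of 3 libraries. The WNT5A groups are apart, the WNT5B groups overlap, and WNT7B, AXIN2 and NKD1 stay under 1 FPKM.

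Set against each other within a library, WNT5B weighed more against WNT5A in oeCSGALNACT2 than in Vector cells. The ratio of WNT5B to WNT5A was 0.499, 1.03 and 1.31 in Vector replicates 1, 2 and 3, and 2.01, 4.06 and 4.63 in oeCSGALNACT2 replicates 1, 2 and 3. Every oeCSGALNACT2 library had a higher ratio than every Vector library, and replicate 1 had the lowest ratio of each group. The log2 ratio was -0.190 ± 0.725 in Vector and 1.75 ± 0.646 in oeCSGALNACT2 cells (SD, n = 3 libraries), a difference of 1.94. The ratio was not a planned measure and combines the opposite differences of both genes given above. Its shift and the separation of the groups therefore restate those differences and add no support to them. Their summed level was 49.0 ± 3.31 FPKM in Vector and 59.5 ± 14.1 FPKM in oeCSGALNACT2 cells, a difference that did not exceed the spread between libraries (exact two-sided permutation p = 0.4, n = 3 libraries). The sum was 47.1, 47.0 and 52.8 FPKM in Vector replicates 1, 2 and 3 and 43.6, 64.7 and 70.3 FPKM in oeCSGALNACT2 replicates 1, 2 and 3. Within the replicate numbers, oeCSGALNACT2 was thus lower in replicate 1 and higher in replicates 2 and 3. The transcripts of these paralogs are distinct enough to be told apart, since 0 of the 7332 stretches of 50 bases in WNT5A transcripts occurred in WNT5B.

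**Figure D3:**
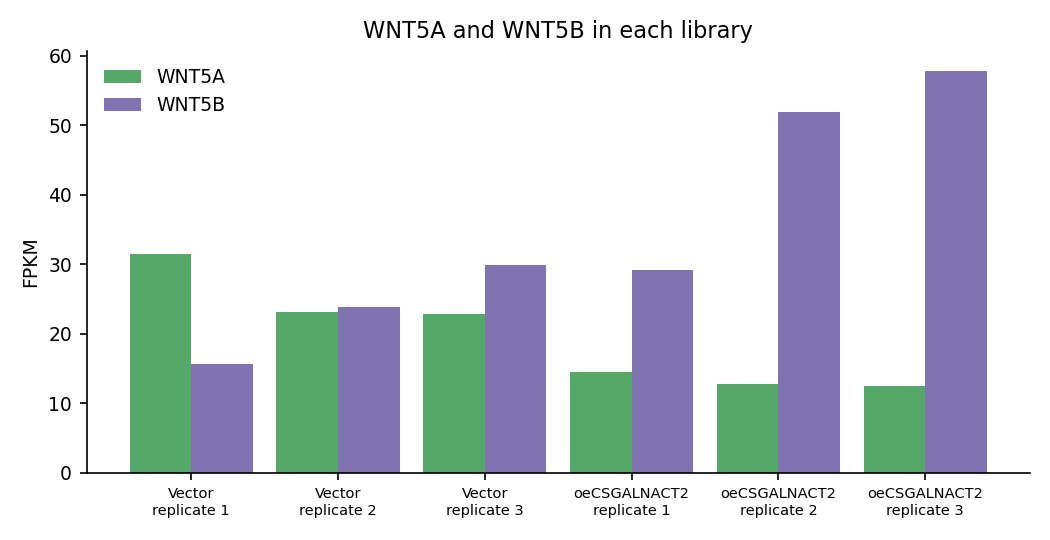
FPKM of WNT5A (green bars) and WNT5B (purple bars) in each of the 6 libraries, on an axis that starts at 0. WNT5A is taller in Vector replicate 1 (31.4 against 15.7 FPKM), the bars are near level in Vector replicate 2, and WNT5B is the taller bar in Vector replicate 3 and in all 3 oeCSGALNACT2 libraries.

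WNT5A and WNT5B made up nearly all Wnt ligand transcript of these cells. Together they held 92.9% to 95.8% of the summed FPKM of the 19 human Wnt ligands in the 6 libraries. Of the 19 ligands, 3 had a mean of at least 1 FPKM and 6 had no read in any library. WNT7B (ENSG00000188064, chromosome 22 from 45920362 to 45977129), a ligand that can act through beta-catenin, was at 0.132, 0.505 and 0.585 FPKM in Vector and at 0, 0.279 and 0.119 FPKM in oeCSGALNACT2 cells. These values rest on 11, 46 and 50 reads in Vector and 0, 24 and 11 reads in oeCSGALNACT2 cells, and the groups overlap, with replicate 1 lowest in both. WNT7B was below the filter of limma. On reads recovered from the FPKM values, edgeR gave an adjusted p of 0.509 without the block and 0.0421 with it, at a log2 fold change of -1.91, where 42.5% of all genes passed. WNT11, a noncanonical ligand named after its values were seen, had 12, 15 and 15 reads in Vector and 0, 2 and 0 in oeCSGALNACT2 cells. Its 42 against 2 reads gave a 20.8-fold lower level in oeCSGALNACT2 cells (95% interval 5.40 to 177, covering counting error only).

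FZD2, a Frizzled receptor that takes part in WNT5A signalling, was the more abundant of both receptors. The gene (ENSG00000180340) lies on the plus strand of chromosome 17 from 44557459 to 44559570. It was at 7.43, 16.8 and 17.6 FPKM in Vector and 10.9, 22.4 and 28.7 FPKM in oeCSGALNACT2 replicates 1, 2 and 3. The groups overlapped, because oeCSGALNACT2 replicate 1 lay under Vector replicates 2 and 3. Replicate 1 was the lowest library of both groups. Limma put the log2 fold change at 0.52, with an SE of 0.448 (adjusted p = 0.625), and with the block the adjusted p was 0.00510. Replicates 2 and 3 alone gave 0.53 (adjusted p = 0.0219). Within the replicate numbers, oeCSGALNACT2 exceeded Vector 1.47-fold, 1.33-fold and 1.63-fold.

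FZD7, another Frizzled receptor, known for canonical signalling in stem and tumour cells, was at a low level. The gene (ENSG00000155760) lies on chromosome 2 from 202034587 to 202038445. Its level was 1.58, 2.86 and 2.92 FPKM in Vector and 1.72, 2.41 and 2.47 FPKM in oeCSGALNACT2 cells. The groups overlapped, and the direction within replicate 1 was opposite to that in replicates 2 and 3. Limma put the log2 fold change at -0.09, with an SE of 0.224 (adjusted p = 0.891, adjusted p = 0.517 with the block), and replicates 2 and 3 alone gave -0.18 (adjusted p = 0.156). FZD2 shared 0.969% of its stretches of 50 bases with FZD7 and 1.55% with FZD1, so few reads could be split among these receptors.

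SFRP1, a secreted antagonist that binds Wnt ligands, was 1.28-fold higher in oeCSGALNACT2 cells, and its ratio varied least between the replicate numbers. The gene (ENSG00000104332) lies on the minus strand of chromosome 8 from 41261958 to 41309497. It was at 16.0, 17.6 and 17.5 FPKM in Vector and at 20.8, 22.4 and 22.5 FPKM in oeCSGALNACT2 replicates 1, 2 and 3. The groups did not overlap, with means of 17.1 ± 0.901 and 21.9 ± 0.948 FPKM (SD, n = 3 libraries, exact two-sided permutation p = 0.1). Limma put the log2 fold change at 0.34, with an SE of 0.147 (adjusted p = 0.309). It passed with the block (adjusted p = 0.00723) and in replicates 2 and 3 alone (0.33, adjusted p = 0.0119). Within the replicate numbers the ratio was 1.30, 1.27 and 1.28, and its GC content lay near the middle of the genes tested.

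DKK3, a divergent member of the Dickkopf family that is often silenced in tumours, was somewhat lower in oeCSGALNACT2 cells. The gene (ENSG00000050165) lies on the minus strand of chromosome 11 from 11963106 to 12009769. It was at 23.8, 29.2 and 31.8 FPKM in Vector and 19.0, 24.6 and 26.5 FPKM in oeCSGALNACT2 cells. The groups overlapped, while oeCSGALNACT2 was lower within each replicate number, at 0.798, 0.842 and 0.835 of Vector. Limma put the log2 fold change at -0.27, with an SE of 0.203 (adjusted p = 0.573). It passed with the block (adjusted p = 0.0153) and not with replicates 2 and 3 alone (-0.24, adjusted p = 0.0550).

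DKK1, the LRP co-receptor antagonist and a beta-catenin target, did not pass in the comparison of all libraries, with the block or with replicates 2 and 3 alone. The gene (ENSG00000107984) lies on the plus strand of chromosome 10 from 52314296 to 52318042. It was at 38.6, 24.2 and 28.5 FPKM in Vector and 44.7, 27.2 and 28.8 FPKM in oeCSGALNACT2 cells. The groups overlapped widely, with replicate 1 the highest library of both. Limma put the log2 fold change at 0.13, with an SE of 0.269 (adjusted p = 0.869, adjusted p = 0.163 with the block). Replicates 2 and 3 alone gave 0.09 (adjusted p = 0.496), and the ratios within the replicate numbers were 1.16, 1.13 and 1.01. DKK1 shares 212 exon bases with PRKG1-AS1, an antisense gene of at most 15 reads in any library, and reads of the pair cannot be told apart without strand.

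**Figure D4:**
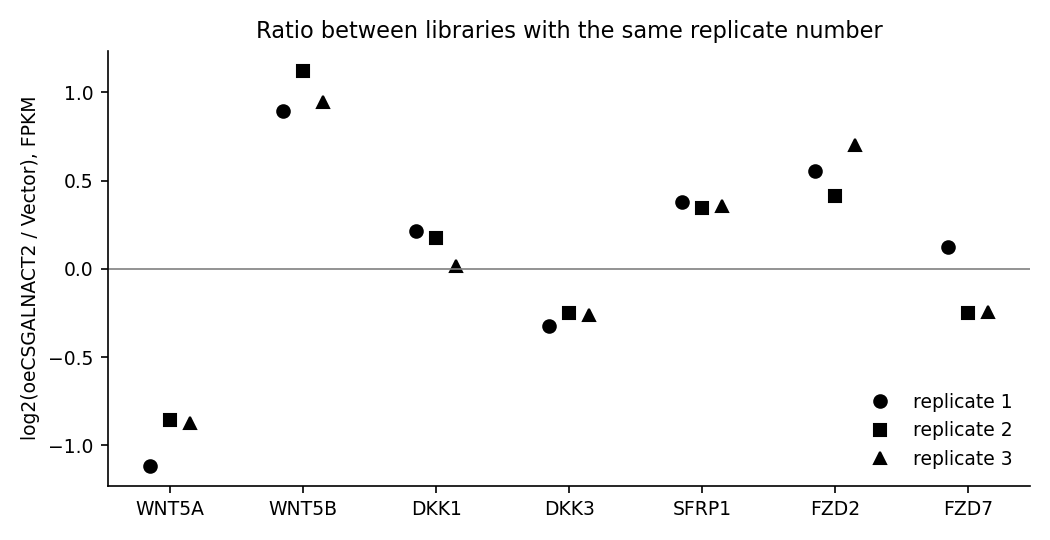
Log2 ratio of oeCSGALNACT2 to Vector FPKM (y axis) for libraries with the same replicate number, for the 7 tested members. Circles, squares and triangles are replicates 1, 2 and 3, and all 3 lie on the same side of 0 for WNT5A, WNT5B, DKK1, DKK3, SFRP1 and FZD2 and on both sides for FZD7.

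AXIN2 and NKD1, classic feedback genes of the canonical branch, were barely transcribed. AXIN2 (ENSG00000168646, chromosome 17 from 65528563 to 65561647), a scaffold of the beta-catenin destruction complex, was at 0.105, 0.371 and 0.475 FPKM in Vector and at 0.447, 0.101 and 0.0523 FPKM in oeCSGALNACT2 cells. These are 9, 35 and 42 reads against 38, 9 and 5. The direction in replicate 1 was the reverse of that in replicates 2 and 3, and the groups overlapped (exact two-sided permutation p = 0.5, n = 3 libraries). AXIN2 shares 1316 exon bases with AC004805.1 on the same strand, which is listed at 0 in every library. NKD1 (ENSG00000140807, chromosome 16 from 50548330 to 50649249), which binds Dishevelled, had 4, 3 and 1 reads in Vector and 0, 3 and 5 reads in oeCSGALNACT2 cells, too few for a comparison.

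The order of mean levels differed between the groups mainly through the WNT5 pair. In Vector cells the means ran from DKK1 (30.4 FPKM) over DKK3 (28.3), WNT5A (25.8), WNT5B (23.2) and SFRP1 (17.1) to FZD2 (14.0), and the ranges of all neighbours in this run overlapped. FZD7 (2.45 FPKM) lay apart below them. In oeCSGALNACT2 cells WNT5B came first (46.3 FPKM), overlapping DKK1 (33.6), whose libraries all lay above those of DKK3 (23.4). SFRP1 (21.9 FPKM) and FZD2 (20.7) overlapped their neighbours, and WNT5A (13.3) came sixth, with all libraries above those of FZD7 (2.20). By mean level, WNT5A thus had rank 3 in Vector and rank 6 in oeCSGALNACT2 cells, and WNT5B had ranks 4 and 1. The Vector order of this pair rested on replicate 1, at 31.4 FPKM for WNT5A against 15.7 for WNT5B. In Vector replicates 2 and 3 WNT5B was the higher, at 23.9 and 29.9 FPKM against 23.1 and 22.9 for WNT5A. In oeCSGALNACT2 replicate 1, DKK1 (44.7 FPKM) lay above WNT5B (29.1).

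The other genes of the pathway were read from 9 lists of Wnt genes, 116 genes in all, of which 57 of the 106 that are not members were tested. With all 6 libraries 1 of the 57 passed, lower in oeCSGALNACT2 cells, and 0 higher, against 1.35% of all genes. With the replicate block 11 were higher and 17 lower, against 43.7% of all genes. The median log2 fold change of the 57 was -0.09. Groups were apart for 10 genes that were higher and 9 that were lower, against 24.0% of all genes, and 16 of the 106 had no read in any library. MYC, VANGL1, CCND1, BIRC5, CSNK1A1, NFATC2, CD44 and APC are named below for the smallest p among genes whose groups do not overlap. Their separation and small p-values follow from that pick. LGR4 met the same rule but was also the most abundant gene of its list.

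APCDD1, a membrane protein that antagonises Wnt signalling at the receptor, was the gene that passed. It was at 2.03, 2.20 and 2.11 FPKM in Vector and at 0.403, 0.287 and 0.377 FPKM in oeCSGALNACT2 cells, 5.94-fold lower and far apart. Limma put the log2 fold change at -1.20, with an SE of 0.145 (adjusted p = 0.0236, adjusted p = 0.00295 with the block). Replicates 2 and 3 alone gave -1.24 (adjusted p = 0.00192). The call was lost without Vector replicate 2 or 3 or oeCSGALNACT2 replicate 2 or 3 (adjusted p from 0.151 to 0.208), although the log2 fold change stayed between -1.16 and -1.21 there. The call was also lost when all genes with any FPKM were tested (adjusted p = 0.0827). The other tested genes of its list, TNFRSF19 among them (1.28, 0.997 and 1.10 against 1.77, 1.46 and 1.45 FPKM), did not pass with the block. RNF43, a ubiquitin ligase that removes Frizzled receptors, had 0 reads in every library, which allows up to 0.00781 FPKM in Vector and 0.00790 in oeCSGALNACT2 cells.

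Among the beta-catenin target genes no direction was shared. MYC was at 115, 150 and 165 FPKM in Vector and 54.4, 79.1 and 74.9 FPKM in oeCSGALNACT2 cells, 2.06-fold lower (adjusted p = 0.0852 from limma, 0.000684 with the block). CCND1, which encodes cyclin D1, was at 149, 170 and 172 FPKM against 214, 301 and 311 FPKM, 1.68-fold higher (adjusted p = 0.131, 0.00295 with the block). These 2 target genes differed in opposite directions, and that their groups were apart follows from how they were picked. BIRC5, the survivin gene, was 1.82-fold higher (adjusted p = 0.179, 0.00210 with the block), and CD44, a cell adhesion receptor, was 1.32-fold lower (adjusted p = 0.283, 0.00508 with the block). FOSL1, the most abundant target gene, overlapped between the groups, at 281 ± 92.5 and 257 ± 67.4 FPKM (SD, n = 3 libraries). Of the 12 target genes tested that are not members, 4 were higher and 4 lower with the block, against 43.7% of all genes in either direction.

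Of the receptors and co-receptors that are not members, 1 was higher and 4 were lower with the block of 10 tested, against 43.7% of all genes in either direction. FZD6, the most abundant receptor, was at 41.5, 25.8 and 26.0 FPKM in Vector and 30.2, 21.1 and 19.6 FPKM in oeCSGALNACT2 cells (log2 fold change -0.37, adjusted p = 0.550, 0.00774 with the block, 0.0582 with the GC trend removed). FZD6 overlapped between the groups through oeCSGALNACT2 replicate 1, as FZD2 did. FZD1, named after its values were seen, was at 3.02, 3.83 and 4.11 against 3.82, 7.03 and 7.71 FPKM (adjusted p = 0.326, 0.0153 with the block, 0.124 with the GC trend removed). ROR1, a WNT5A receptor, overlapped at 1.64 ± 0.391 and 1.45 ± 0.452 FPKM (SD, n = 3 libraries), and ROR2, its paralog, had 0 reads, which allows up to 0.0101 FPKM in Vector and 0.0102 in oeCSGALNACT2 cells. LGR4, the R-spondin receptor, was 1.57-fold higher with the groups apart (adjusted p = 0.195, 0.00244 with the block). The secreted inhibitors other than the members were not tested, as none reached 1 FPKM.

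In the machinery around the ligands, PORCN, the acyltransferase that lipidates Wnt ligands, was at 2.42, 3.94 and 3.81 FPKM in Vector and 1.22, 2.03 and 2.91 FPKM in oeCSGALNACT2 cells (adjusted p = 0.366, 0.0168 with the block). WLS, which carries Wnt ligands to the surface, was at 32.4, 35.6 and 35.2 against 27.0, 32.2 and 31.5 FPKM (adjusted p = 0.625, 0.0519 with the block). Of the planar polarity genes, VANGL1 was 1.92-fold higher with the groups apart (adjusted p = 0.0931, 0.00469 with the block), while VANGL2 overlapped at 7.38 ± 1.18 and 6.44 ± 1.92 FPKM (SD, n = 3 libraries). NFATC2, a calcium-regulated factor, was 1.54-fold lower (adjusted p = 0.212, 0.00604 with the block). Among the transducers, CTNNB1, the beta-catenin gene, was at 52.6 ± 4.27 and 59.5 ± 2.12 FPKM (adjusted p = 0.625, 0.104 with the block). Its groups were narrowly apart, with 57.3 FPKM the highest Vector value and 57.6 FPKM the lowest oeCSGALNACT2 value. CSNK1A1, a kinase of the destruction complex, was 1.37-fold lower (adjusted p = 0.200, 0.00406 with the block, 0.290 with the GC trend removed). APC, another part of that complex, was 1.31-fold higher (adjusted p = 0.338, 0.0134 with the block, 0.0574 with the GC trend removed).

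**Figure D5:**
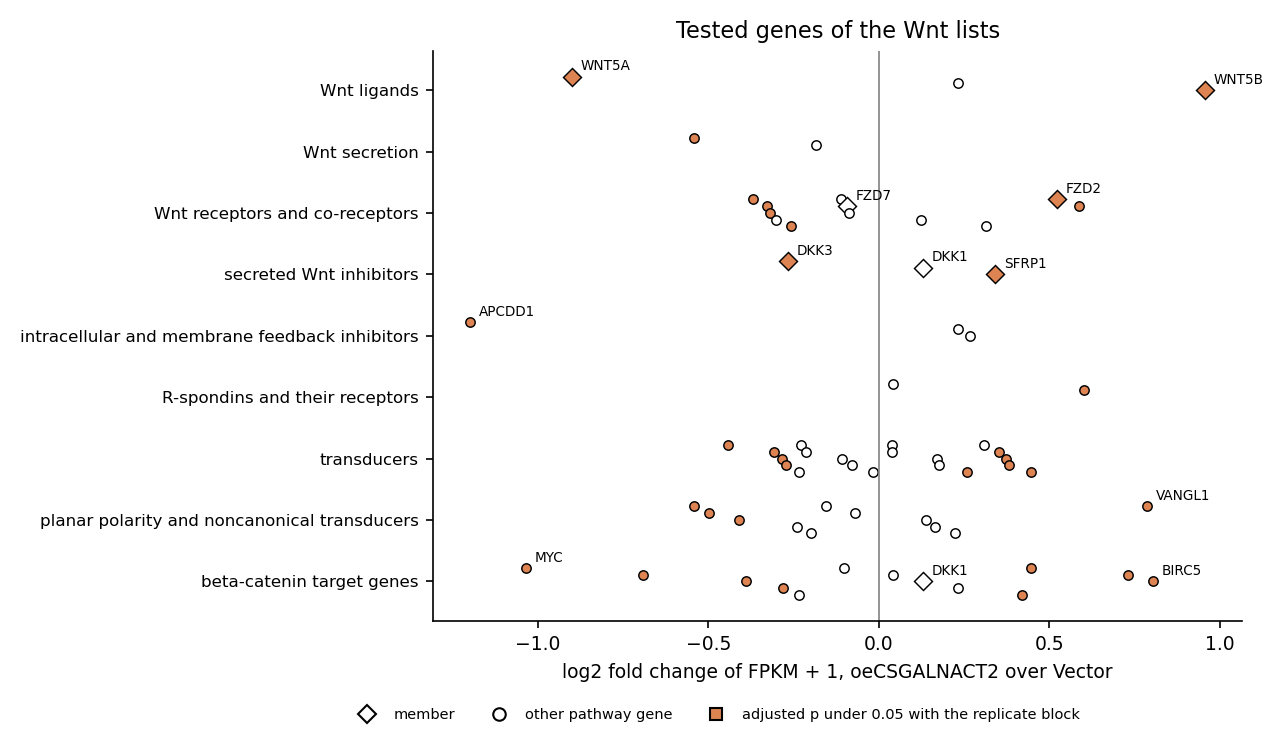
Log2 fold change (FPKM + 1, oeCSGALNACT2 over Vector, all 6 libraries) of each tested gene in the 9 Wnt lists. Diamonds are members, circles other genes, and filled symbols have an adjusted p under 0.05 with the replicate block. WNT5A and WNT5B lie at -0.90 and 0.96, and APCDD1 lies farthest to the left at -1.20.

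The genes whose profile over the 6 libraries was most like that of WNT5A were sought among all genes tested, by the root mean square difference of centred log2(FPKM + 1) values. The nearest was BDNF, a neurotrophin, at a difference of 0.0240 against a median of 0.562 over all genes. BDNF was at 9.47, 6.74 and 6.55 FPKM in Vector and 4.05, 3.35 and 3.19 FPKM in oeCSGALNACT2 cells. Its high replicate 1 in both groups and its lower level in oeCSGALNACT2 cells follow from how it was picked. The same holds for the other genes named here. XBP1 (0.0547), a factor of the unfolded protein response, TNKS (0.0675), a poly-ADP-ribosyltransferase that marks AXIN proteins for degradation, CTH (0.0733), an enzyme of cysteine synthesis, and PPP4R4 (0.0742) came next. TNKS was at 9.95, 8.25 and 8.22 against 4.80, 4.27 and 3.87 FPKM (log2 fold change -0.88, adjusted p = 0.0578 from limma). None of the 5 genes passed in limma with all libraries, with adjusted p from 0.0578 (TNKS) to 0.127 (PPP4R4).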

How the data were processed

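The authors deposited counts, whole reads per gene, and FPKM values, reads scaled by gene length and library size. Libraries were prepared from TRIzol-extracted RNA with a SMARTER mRNA-Seq kit, with no aligner or counter given in the sources used here. All 58735 genes match GENCODE 29 on GRCh38, whereas mm10 is the build in the submitters' processing notes. Since counts of only 1310 genes were at hand, limma 3.58.1 (R 4.3.3) with a variance trend tested log2(FPKM + 1) wherever the mean FPKM was at least 1, with Benjamini-Hochberg adjustment at 0.05. Reads recovered from FPKM were whole within 0.01 for 100% of values above 0 and equalled the counts for all 1310 genes.

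Groups and replicate numbers came from the sample descriptions. The titles of the oeCSGALNACT2 samples name CSGALNACT1 instead, and the level of CSGALNACT2 follows the descriptions. Deviations from the group means correlated at 0.810, 0.631 and 0.686 between libraries numbered 1, 2 and 3, so the number was used as a block. Replicates 2 and 3 also correlated across numbers (0.590 and 0.682), so the data do not show that these pair by number.

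The genes, lists and tests were chosen with earlier results of these data known. All 10 members were named, with pathway genes past the threshold, those of smallest p among genes whose groups do not overlap, to 10 in all, and the most abundant of each list. Of the genes nearest to WNT5A, 5 were named. FZD1, ROR1, ROR2, RNF43, PORCN, WNT11, SP5, FZD8 and PTK7 were chosen after their values were seen. Alternatives were a pseudocount of 0.1, no filter, median centring, the block, replicates 2 and 3 alone, each library left out, and edgeR 4.0.16 and DESeq2 1.42.0 on recovered reads (at least 10 on average, or any read). After the data were seen, edgeR with the block and limma after removing each library's GC trend (lowess, span 0.3) were added.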

Additional observations from a re-analysis of the deposited data

How the results depend on the processing

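Of 11479 genes, 155 passed with all 6 libraries. This count was 5017 with the replicate block, 4800 with replicates 2 and 3 alone, 31 with all genes of any FPKM above 0, 1150 with DESeq2 (8.07% of its genes), 365 with edgeR on all genes with a read, and from 5 to 159 when a library was left out. With the GC trend removed it was 2620 (22.8%), with that and the block 4887, and with edgeR and the block 6056. The members called numbered 0 with all libraries, 5 with the block, 4 with replicates 2 and 3 alone, 1 with DESeq2 (WNT5A, adjusted p = 0.00193), 5 with the GC trend removed, with or without the block, and 6 with edgeR and the block, the sixth being WNT7B. No member was called when any single library was left out or by edgeR without the block. Pathway genes called that are not members numbered 1 with all libraries, 28 with the block, 25 with replicates 2 and 3 alone, 0 without a filter, 5 with DESeq2, 2 with edgeR on all genes with a read, 14 with the GC trend removed, 32 with that and the block, 34 with edgeR and the block, and from 0 to 1 when a library was left out. A pseudocount of 0.1 and median centring moved no count by over 1.5 times.

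With the GC trend removed, the adjusted p was 0.00227 for WNT5A, 0.00315 for WNT5B, 0.0275 for SFRP1, 0.0281 for FZD2 and 0.0357 for DKK3. These 5 genes kept their direction under every alternative run. When a library was left out, the log2 fold change ranged from 0.15 (without Vector replicate 1) to 0.90 (without oeCSGALNACT2 replicate 1) for FZD2, from -0.38 to -0.13 (the same libraries) for DKK3, from -0.98 to -0.75 for WNT5A, from 0.71 to 1.25 for WNT5B and from 0.30 to 0.38 for SFRP1. DKK1 and FZD7 did not: leaving out a library moved the log2 fold change of DKK1 between -0.09 and 0.31 and of FZD7 between -0.29 and 0.02. DKK1 was reversed without Vector replicate 2 (-0.02) and without oeCSGALNACT2 replicate 1 (-0.09), FZD7 without Vector replicate 3 (0.01) and without oeCSGALNACT2 replicate 1 (0.02). The cause of these shifts was not tested. The motif counts were the same in a window of 150 bases before to 50 after the start. WNT7B, AXIN2 and NKD1 are limited by depth, with at most 50 reads in a library.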

Other observations

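WNT5A-AS1, on the strand opposite WNT5A and sharing 0 exon bases with it, was at 0.730, 9.97 and 10.8 FPKM in Vector and 2.70, 8.22 and 6.67 FPKM in oeCSGALNACT2 replicates 1, 2 and 3. Replicate 1 was the lowest library of both groups, at 6 and 22 reads, where WNT5A itself was highest in replicate 1 of both. FBXL14, a ubiquitin ligase gene that overlaps WNT5B on the opposite strand without shared exon bases, was at 2.07, 4.70 and 5.84 FPKM in Vector and 1.21, 7.04 and 6.55 FPKM in oeCSGALNACT2 cells, with replicate 1 lowest in both groups, as for WNT5B. SP5, a beta-catenin target named after its values were seen, had 8, 12 and 18 reads in Vector and 0, 43 and 47 in oeCSGALNACT2 cells. SP5 was higher in oeCSGALNACT2 replicates 2 and 3 than in any Vector library and had no read in oeCSGALNACT2 replicate 1. That library had the fewest genes with a read (17894), and whether this bears on SP5 was not tested. AXIN2, another beta-catenin target, had its highest count of the oeCSGALNACT2 group in that replicate 1, at 38 reads. FZD8, a Frizzled receptor, was at 6.62, 17.8 and 20.5 FPKM in Vector and 5.50, 14.8 and 16.5 FPKM in oeCSGALNACT2 cells, below Vector within each replicate number (adjusted p = 0.866 from limma, 0.0208 with the block, 0.148 with the GC trend removed). PTK7, a planar polarity co-receptor, was at 5.69, 12.4 and 13.6 against 4.58, 10.4 and 9.65 FPKM (adjusted p = 0.756, 0.0213 with the block, 0.134 with the GC trend removed).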
